A study of Mus musculus with 15 samples.

Results

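The T cells of the first implanted tumor (tumor 1) and of its tumor-draining lymph node (TdLN) were compared for how their T cell receptor (TCR) β genes had been joined: which J and D genes were used, how long the CDR3 loop was, how many bases were added at the joints and how many were trimmed from the gene ends. All in-frame rearrangements of the 5 right tumors and the 5 lymph nodes were taken, and samples with the same number came from the same mouse. These were 10 of the 15 samples and 17135 of the 18625 in-frame rearrangements of the series, out of 29992 rearrangements of any reading frame. Tumor 1 held 1423 of them (245, 292, 183, 366 and 337 in mice 1 to 5) and the TdLN 15712 (1347, 1631, 1290, 5722 and 5722).

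All samples came from untreated control mice, female C57BL/6 bought at 6 weeks of age, which bore B16F10GP tumors on both flanks. B16F10GP is the B16F10 mouse melanoma line given the LCMV glycoprotein with a lentivirus and sorted for a bright fluorescent reporter, so 1 engineered line stood for the tumor. The right tumor was implanted on day 0, the left on day 3, and tissues were taken on day 19. T cells positive for CD8, PD-1 and CD44 had been isolated by flow cytometry, and TCRβ rearrangements were read from their genomic DNA with the immunoSEQ assay. The labels call the nodes only lymph node (the study's methods name them TdLN) and give the cell type of every sample as B16F10GP. The files hold TCRβ rearrangements and no other genes, so the sorted phenotype was not checked against markers. In-frame templates, the estimated number of genomes that carried a rearrangement, ranged from 3601 to 6137 in tumor 1 and from 3254 to 9105 in the TdLN, and 1 rearrangement held 10.1% to 62.3% of them in tumor 1 against 0.297% to 10.8% in the TdLN.

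A TCRβ gene is assembled in the thymus from V, D and J segments by the RAG recombinase. A D segment is first joined to a J segment and the pair is then joined to a V segment. At each joint exonucleases trim the gene ends and terminal transferase adds N bases that no gene encodes. The CDR3, which reads from a conserved cysteine of the V segment to a conserved phenylalanine of the J segment and touches the peptide on the MHC molecule, spans both joints, and every cell that descends from one T cell keeps the same rearrangement. The mouse locus has a pair of D-J clusters in a row, Trbd1 with the Trbj1 genes and then Trbd2 with the Trbj2 genes. Trbd1 can therefore be joined to either set of J genes by deleting the stretch between them, whereas Trbd2 lies past the Trbj1 genes.

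Both D genes and the J genes on which the J results turn are shown first, as read from the RefSeq sequence of GRCm38 at the GENCODE M21 positions, all on the plus strand of chromosome 6. The D genes differ by little, which bears on how surely a trimmed D can be named. Trbd1 covers chr6:41533201-41533212 and Trbd2 chr6:41542163-41542176. Trbj1-1 covers chr6:41533864-41533911, Trbj1-3 chr6:41534323-41534376, Trbj2-2 chr6:41542957-41543007, Trbj2-5 chr6:41543453-41543501 and Trbj2-7 chr6:41543810-41543856. Capitals mark the whole D gene and, in a J gene, the bases up to and including the codon of the closing phenylalanine, which are those that enter the CDR3.
Trbd1: GGGACAGGGGGC
Trbd2: GGGACTGGGGGGGC
Trbj1-1: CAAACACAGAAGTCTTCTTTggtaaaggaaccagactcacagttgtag
Trbj1-3: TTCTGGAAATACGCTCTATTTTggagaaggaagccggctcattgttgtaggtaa
Trbj2-2: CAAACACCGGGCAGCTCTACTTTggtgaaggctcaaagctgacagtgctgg
Trbj2-5: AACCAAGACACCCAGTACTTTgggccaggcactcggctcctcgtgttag
Trbj2-7: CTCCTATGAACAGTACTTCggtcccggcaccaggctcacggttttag

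The largest in-frame rearrangement of each sample shows what the junctions looked like and which clones weigh most when templates are counted. Each deposited rearrangement has 87 bases and stops 3 bases short of the end of the CDR3, so the closing phenylalanine itself was not read. Capitals mark the bases between the end of the V segment and the start of the J segment, that is the N bases and what was left of the D gene. In mice 1 and 2 the largest rearrangement of tumor 1 was also the largest of the TdLN and is given once.
Tumor 1 and TdLN, mouse 1: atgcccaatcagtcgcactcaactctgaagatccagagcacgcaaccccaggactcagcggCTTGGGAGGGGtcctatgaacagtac
Tumor 1 and TdLN, mouse 2: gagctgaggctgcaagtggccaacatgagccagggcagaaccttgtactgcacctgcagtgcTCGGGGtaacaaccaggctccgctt
Tumor 1, mouse 3: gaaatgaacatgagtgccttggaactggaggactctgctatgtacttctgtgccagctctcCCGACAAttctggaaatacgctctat
Tumor 1, mouse 4: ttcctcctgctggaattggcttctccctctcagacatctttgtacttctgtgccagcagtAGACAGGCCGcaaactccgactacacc
Tumor 1, mouse 5: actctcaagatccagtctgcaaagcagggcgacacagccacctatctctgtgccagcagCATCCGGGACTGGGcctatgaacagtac
TdLN, mouse 3: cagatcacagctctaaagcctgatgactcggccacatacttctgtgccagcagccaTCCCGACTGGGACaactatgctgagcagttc
TdLN, mouse 4: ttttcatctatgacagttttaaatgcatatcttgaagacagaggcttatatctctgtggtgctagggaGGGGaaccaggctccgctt
TdLN, mouse 5: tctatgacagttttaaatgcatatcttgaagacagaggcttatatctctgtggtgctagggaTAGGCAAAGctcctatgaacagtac

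The 5 dominant tumor clones had different sequences between V and J but shared some traits. Those of mice 2 to 5 had CDR3s of 14 residues, and those of mice 1 and 5 used Trbj2-7. Those of mice 1, 2 and 5 had no N base between D and J. That of mouse 1 joined Trbj2-7, counted 2948 templates in tumor 1 and 409 in the TdLN, and had lost 25 V bases, so that its listed CDR3, GSYEQYF, had 7 residues and no opening cysteine. That of mouse 2, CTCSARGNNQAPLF, joined Trbj1-5 with 2 N bases and counted 1158 templates in tumor 1 and 113 in the TdLN. The other three tumor clones also had CDR3s of 14 residues, but each used a different J gene. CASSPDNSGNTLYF of mouse 3 used Trbj1-3 with 3 N bases and counted 2476 templates. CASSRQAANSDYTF of mouse 4 used Trbj1-2 with 4 N bases and counted 538 templates. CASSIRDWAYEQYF of mouse 5 used Trbj2-7 with 5 N bases, counted 679 templates, and was not among the rearrangements of its TdLN, where 0 of 9105 in-frame templates allow a share of up to 0.0329%. The largest TdLN clones of mice 4 and 5 were small, at 48 and 27 templates, and that of mouse 4, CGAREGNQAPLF, had no N base at all.

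J gene usage was much alike in both tissues when every rearrangement was counted once. Trbj2-7 was the most used J gene of both, with a mean share of 25.7% ± 3.66 in tumor 1 and 21.9% ± 0.675 in the TdLN (SD, n = 5), followed by Trbj1-1 and Trbj2-1 in tumor 1 (12.1% and 11.1%) and by Trbj2-1 and Trbj2-5 in the TdLN (12.9% and 11.2%). The least used of the 12 J genes tested were Trbj1-6 (3.28% in tumor 1 and 3.27% in the TdLN) and Trbj1-5 (3.69% and 3.24%). None of the 12 passed the threshold (percent called 0), an adjusted p under 0.05 in a two-sided exact permutation test over samples with Benjamini-Hochberg adjustment over the J genes. At an unadjusted p under 0.05, 1 of the 12 did.

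That gene was Trbj2-5. Its share was 6.53%, 9.25%, 8.24%, 9.56% and 9.20% in tumor 1 of mice 1 to 5, and 11.6%, 11.2%, 11.9%, 11.0% and 10.1% in their TdLN. Every tumor lay below every node, by a mean of 2.61 points (the differences within the 5 mice had an SD of 1.72), with p = 0.00794, the smallest the exact permutation test can give, and an adjusted p of 0.0952. The mean within-mouse difference was -3.56 points in mice 1 to 3 and -1.17 in mice 4 and 5, whose samples are named in another style. Leaving out tumor 1 of mouse 3 or of mouse 5 brought the adjusted p of Trbj2-5 to 0.0317 and 0.0476, with 3 and 2 J genes past the threshold. Among rearrangements with at least 2 templates the order was reversed, at 6.99% ± 2.58 in tumor 1 and 3.99% ± 1.91 in the TdLN (SD, n = 5).

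Trbj2-7 had the largest difference between the means of the 12 J genes, at 3.79 percentage points, and Trbj1-1 came after Trbj2-5 with 2.10 points, both higher in tumor 1. The Trbj2-7 share was 28.2%, 27.4%, 20.3%, 29.0% and 23.4% in tumor 1 and 22.3%, 21.7%, 20.8%, 22.5% and 22.1% in the TdLN. It was higher in the tumor of 4 of 5 mice, mouse 3 being the exception (exact permutation p = 0.0952, adjusted p = 0.381; without tumor 1 of mouse 3, adjusted p = 0.0317). Trbj1-1 was 15.1%, 10.6%, 12.6%, 9.29% and 12.8% in tumor 1 and 11.2%, 9.04%, 9.53%, 10.01% and 10.1% in the TdLN. The ranges of the tissues overlapped (exact permutation p = 0.0873, adjusted p = 0.381). The other 9 J genes differed by -1.76 to 1.27 percentage points between the means.

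**Figure D1:**
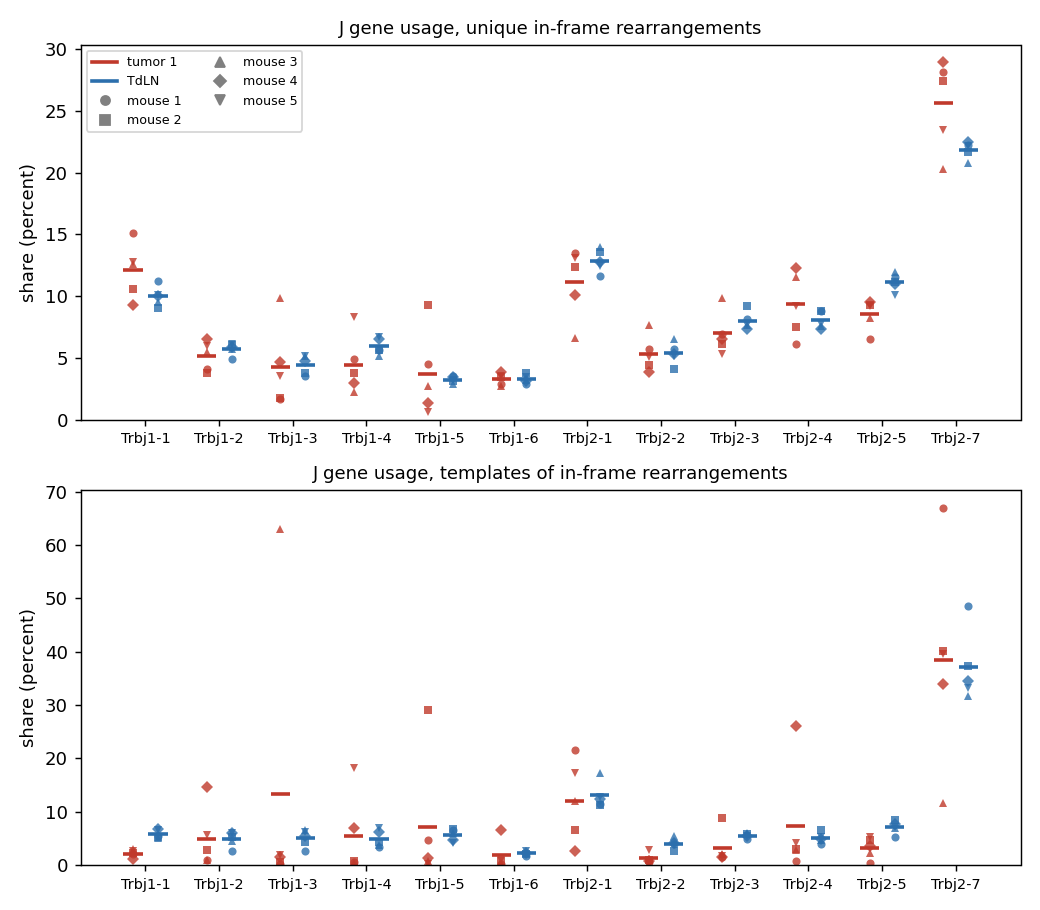
Share of each of the 12 J genes (percent) among unique in-frame rearrangements (upper panel) and among their templates (lower panel), with tumor 1 in red, TdLN in blue, 1 point per mouse and a bar at the mean. Trbj2-5 is the only J gene of the upper panel whose tumor points all lie below its TdLN points. In the lower panel the Trbj1-3 clone of mouse 3 sets the highest Trbj1-3 share of the tumors.

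Weighted by templates, single clones weighed heavily on some tumor shares. Not every high share rested on 1 clone. Trbj2-4 held 26.1% of the templates in tumor 1 of mouse 4, whose largest rearrangement, with Trbj1-2, held 10.1%. The Trbj1-3 share was 62.9% in tumor 1 of mouse 3, where the clone shown above sits, and 0.0978% to 1.89% in the other four tumors, against 2.51% to 6.60% in the TdLN. The mean difference of 8.38 points turned to -4.01 without that tumor. None of the 12 J genes passed the threshold on templates (percent called 0), and 3 had an unadjusted p under 0.05.

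These 3 were all lower in the tumor of every mouse. Trbj1-1 made up 1.99%, 2.14%, 2.89%, 1.02% and 2.58% of tumor templates and 5.45%, 5.31%, 4.97%, 6.64% and 6.57% of TdLN templates. The ranges did not overlap (exact permutation p = 0.00794, adjusted p = 0.0635). Trbj2-5 made up 0.407%, 4.74%, 2.32%, 3.47% and 5.28% of tumor templates against 5.19%, 8.46%, 6.88%, 7.65% and 7.13% in the TdLN, with an overlap of 1 tumor and 1 node (exact permutation p = 0.0159, adjusted p = 0.0635). Trbj2-2, singled out here after its values were seen, made up 1.20% ± 0.884 of tumor and 3.99% ± 0.949 of TdLN templates (SD, n = 5; exact permutation p = 0.0159, adjusted p = 0.0635). limma on log2 shares, without the mouse as a block, called Trbj1-1 and Trbj2-2 (adjusted p = 0.0216 for each at a pseudocount of 0.1). Without rearrangements found in another mouse, the Trbj1-1 difference went from -3.66 to -0.543 points and that of Trbj2-2 from -2.79 to -1.02. With at least 2 templates the Trbj2-5 difference went from -3.82 to -0.164 points and that of Trbj1-1 to 0.117. Without tumor 1 of mouse 2 or of mouse 4, 2 J genes passed the exact test, and without that of mouse 5, 3 did.

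Trbj1-1 thus had a higher mean share of tumor rearrangements than of TdLN rearrangements but a lower share of templates. Its mean share was 12.1% of rearrangements and 2.13% of templates in tumor 1, and 9.98% and 5.79% in the TdLN. The number of templates per rearrangement differed between J genes in both tissues, given first for the TdLN. Of TdLN rearrangements with Trbj1-1, 91.0% ± 8.17 (SD, n = 5) were seen as a single template, against 24.2% ± 4.86 of those with Trbj2-7. Trbj2-4 (88.9%), Trbj1-6 (88.1%) and Trbj2-5 (86.0%) lay near the former, Trbj1-5 (28.7%) and Trbj1-3 (39.0%) near the latter. Mean templates per TdLN rearrangement were 1.23 for Trbj1-1 and 3.78 for Trbj2-7.

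The J genes of tumor 1 lay closer together in this percentage. There 59.5% ± 15.8 of the Trbj1-1 and 32.6% ± 7.70 of the Trbj2-7 rearrangements had a single template (SD, n = 5), and the other 10 J genes lay between 43.3% and 61.7%. In mean templates per rearrangement they lay further apart, from 2.99 ± 1.30 for Trbj1-1 to 25.6 ± 19.2 for Trbj2-7 and 30.9 ± 60.4 for Trbj1-3 (SD, n = 5), against 1.23 to 3.997 in the TdLN, and the large tumor clones weigh on these means. The contrast between these J genes was smaller among out-of-frame rearrangements, which encode no receptor chain. In the TdLN 94.4% ± 5.79 of those with Trbj1-1 and 67.6% ± 4.16 of those with Trbj2-7 had a single template. The in-frame values there were 91.0% and 24.2%. In tumor 1 the out-of-frame values were 72.7% ± 16.1 and 66.2% ± 1.66 (SD, n = 5). The assay amplifies with primers for each J gene, and the part of amplification in these values was not tested.

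**Figure D2:**
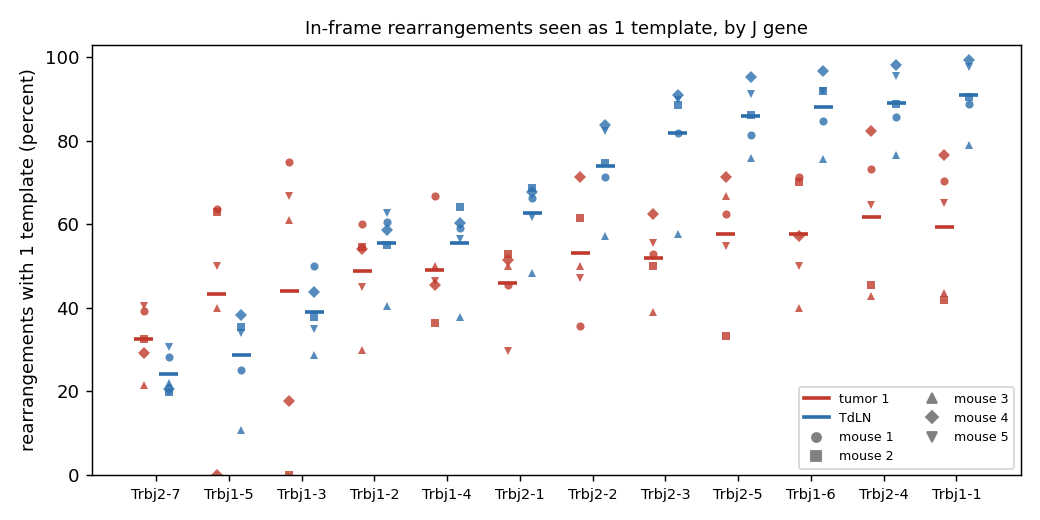
Percentage of in-frame rearrangements with a single template for each J gene, ordered by the TdLN mean, with tumor 1 in red, TdLN in blue, 1 point per mouse and a bar at the mean. In the TdLN the means run from 24.2% for Trbj2-7 to 91.0% for Trbj1-1, and in tumor 1 from 32.6% to 61.7%.

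A minimum number of templates therefore changed which J genes stood out. Among rearrangements with at least 2 templates, Trbj1-1 made up 9.28% ± 2.96 in tumor 1 and 2.14% ± 1.68 in the TdLN (SD, n = 5), and Trbj1-6 2.68% ± 0.841 and 0.947% ± 0.469. Both differences passed the threshold in the exact permutation test (adjusted p = 0.0476 for each), with every tumor above every node. Trbj2-7 had 33.6% in tumor 1 and 44.2% in the TdLN, the opposite order to that over all rearrangements. Among rearrangements with a single template the picture turned again: Trbj2-7 was at 17.3% ± 4.26 in tumor 1 and 8.62% ± 1.65 in the TdLN, and Trbj2-5 at 10.2% ± 2.86 and 15.6% ± 1.52 (exact permutation, adjusted p = 0.0476 for each, a setting added after the data were seen).

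The CDR3 had about the same mean length in both tissues. Over unique rearrangements it was 13.4, 14.0, 14.1, 13.8 and 13.8 residues in tumor 1 of mice 1 to 5 and 14.1, 14.0, 14.0, 13.9 and 13.9 residues in their TdLN. The means were 13.8 ± 0.270 and 14.0 ± 0.0777 residues (SD, n = 5), a difference of -0.176 that was within the spread between mice (exact permutation p = 0.167, adjusted p over the 12 junction measures 0.333). The tumor of mouse 1 was the shortest, and only its rearrangements had a length SD above the nodes (2.20 residues against 1.45 to 1.59). Its 25 CDR3s listed without the opening cysteine had a mean of 8.92 residues, against 13.9 for the rest of that tumor. Over CDR3s with both the cysteine and the closing phenylalanine, a choice that leaves out shorter ones, the difference between tissues was -0.0455 residues. Among rearrangements with at least 2 templates the difference was 0.0403 residues.

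By length class, tumor 1 held more CDR3s of 13 residues and fewer of 15, but no class passed the threshold. The share of 13 residues was 20.7% ± 1.68 in tumor 1 and 17.7% ± 1.04 in the TdLN, and that of 15 residues 19.9% ± 1.71 and 23.0% ± 1.08 (SD, n = 5; exact permutation p = 0.0238 and adjusted p = 0.0952 for each). The share of 15 residues was lower in the tumor of all 5 mice, that of 13 residues higher in 4 of 5. In both tissues 14 residues was the most frequent length, at 32.9% ± 4.78 and 29.9% ± 1.45. None of the 8 classes was called (percent called 0), and 2 had an unadjusted p under 0.05.

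On templates, a scale added for the length classes after the data were seen, 3 of 9 classes were called (percent called 33.3), all lower in the tumor. CDR3s of 15 residues made up 4.37%, 17.6%, 5.33%, 14.2% and 10.5% of tumor templates and 21.0%, 20.2%, 20.2%, 20.5% and 19.5% of TdLN templates. Those of 11 residues made up 0.656% ± 0.394 against 4.30% ± 0.774, and those of 17 residues 0.542% ± 0.316 against 1.999% ± 0.389 (SD, n = 5; exact permutation, adjusted p = 0.0238 for each of the 3). In all 3 classes every tumor lay below every node. The exact sign-flip test within mice, with 5 pairs, cannot go below p = 0.0625 and called none, and without the largest rearrangement of each sample none was called either. Tumor templates were concentrated at 14 residues, the length of 4 of the 5 dominant clones, at 42.9% ± 22.5 against 29.8% ± 3.85 (exact permutation p = 0.254, adjusted p = 0.457).

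**Figure D3:**
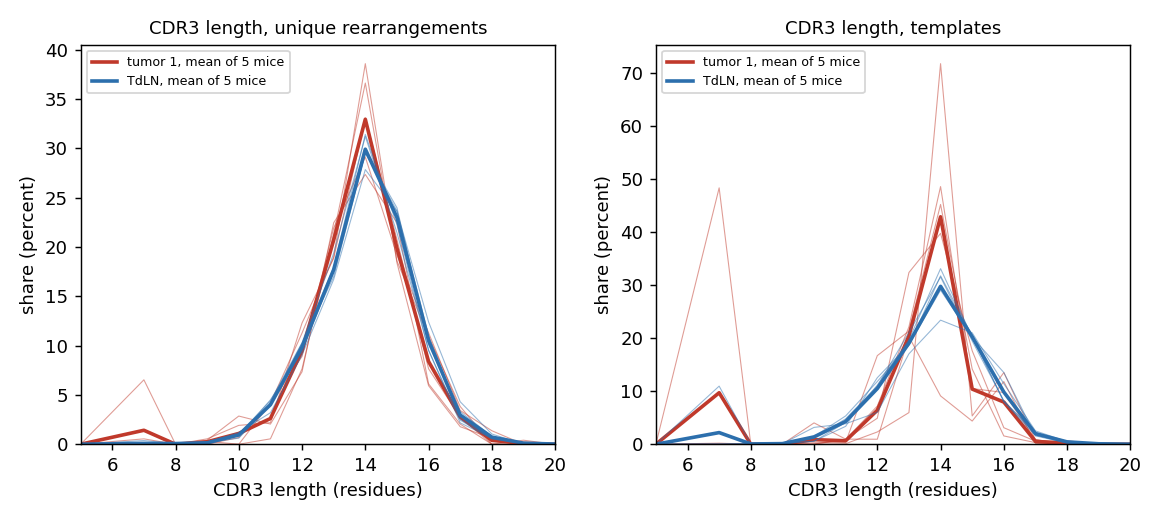
CDR3 length in residues against the share of unique in-frame rearrangements (left) and of templates (right), in percent, with a thin line per mouse and a thick line at the mean of 5 mice, tumor 1 in red and TdLN in blue. Both unique curves peak at 14 residues with means of 32.9% and 29.9%, and on templates the tumor curves scatter around their own largest clones, including the 7-residue clone of mouse 1.

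The mean length differed between J genes. In the TdLN the mean CDR3 ran from 13.3 residues with Trbj1-1 and 13.4 with Trbj2-7 to 14.8 with Trbj2-2. In tumor 1 it ran from 13.2 with Trbj2-7 to 14.7 with Trbj2-3, and of the 12 J genes 5 had a longer mean in tumor 1 and 7 a shorter one. The germline stretch up to the phenylalanine codon is 19 bases in Trbj2-7, 20 in Trbj1-1 and 23 in Trbj2-2. Of these, Trbj2-2 had the longest stretch and the longest mean in both tissues, whereas Trbj1-1 and Trbj2-7 stood in the opposite order to their stretches in the TdLN. With the same J gene weights in every sample the difference between tissues was -0.0836 residues.

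Of the 12 junction measures, 2 passed the threshold over unique rearrangements (percent called 16.7), and both lay at the V side of the junction. V trimming, the number of bases lost from the V segment's end, was 4.36, 3.70, 3.24, 3.02 and 3.15 in tumor 1 of mice 1 to 5 and 2.72, 2.76, 2.79, 2.51 and 2.50 in their TdLN. N insertions between V and D were 2.34, 2.33, 2.20, 2.14 and 2.18 bases in tumor 1 and 2.06, 1.94, 1.97, 1.73 and 1.68 in the TdLN. Every tumor lay above every node in both. The means were 3.49 ± 0.545 against 2.66 ± 0.143 bases for V trimming and 2.24 ± 0.0926 against 1.88 ± 0.164 for the insertions (SD, n = 5; exact permutation, p = 0.00794 and adjusted p = 0.0476 for each).

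Both calls sat at the limit of the test and were lost in most other settings. The V trimming call was lost in 18 and kept in 5, and the V-D insertion call was lost in 20 and kept in 5. Leaving out 1 sample at a time lost the former in 9 cases and the latter in 10. Within mice the exact sign-flip test gave an adjusted p of 0.188 for each (paired by replicate block), and without tumor 1 of mouse 1 the differences were 0.624 and 0.335 bases (adjusted p = 0.0952). With at least 2 templates they were 0.286 (adjusted p = 0.190) and 0.0825 bases (adjusted p = 0.762). The sample name style moved with the size: the V trimming difference was 1.01 bases in mice 1 to 3 and 0.587 in mice 4 and 5, and that of V-D insertions 0.300 and 0.455. In the TdLN of mice 4 and 5, the nodes with most rearrangements, total N insertions were 3.33 and 3.22 bases against 3.70 to 3.95 in the other three nodes.

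A small set of rearrangements whose listed CDR3 lacked the opening cysteine or the closing phenylalanine, like the clone of mouse 1 shown above, weighed on both differences. These were 25, 17, 5, 5 and 12 rearrangements in tumor 1 of mice 1 to 5, or 64 of 1423, and 14, 9, 7, 14 and 24 in the TdLN, or 68 of 15712. As a share this was 10.2%, 5.82%, 2.73%, 1.37% and 3.56% in tumor 1 and 1.04%, 0.552%, 0.543%, 0.245% and 0.419% in the TdLN, with no overlap (exact permutation p = 0.00794, a comparison chosen after the data were seen). The 95% Wilson interval, which covers counting error only, was 7.01% to 14.6% for tumor 1 of mouse 1 and 0.585% to 3.16% for that of mouse 4. Of the templates, these rearrangements held 48.5% in tumor 1 and 11.2% in the TdLN of mouse 1. In mice 2 to 5 the template shares were 0.452%, 0.302%, 0.132% and 0.389% in tumor 1 and 0.338%, 0.203%, 0.229% and 0.264% in the TdLN. The exact permutation p on templates was 0.571 over 5 mice, and 0.457 without mouse 1 (difference 0.0603 points). All 64 in tumor 1 and 66 of the 68 in the TdLN lacked the cysteine, and their mean V trimming per sample was 15.9 to 22.7 bases in tumor 1 and 13.9 to 19.6 in the TdLN.

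With only the rearrangements that opened with cysteine and closed with phenylalanine, V trimming was 2.64 ± 0.218 bases in tumor 1 and 2.57 ± 0.125 in the TdLN, and V-D insertions 1.95 ± 0.149 and 1.85 ± 0.151 (SD, n = 5). Deep trimming of the V segment removes the cysteine codon, so this choice selects on V trimming itself and narrows the gap by its construction, and the values are given without a test. In mice 1 to 3 the differences were then -0.0805 bases for V trimming (SD 0.170) and -0.0619 for V-D insertions (SD 0.201). In mice 4 and 5 they stayed at 0.289 (SD 0.0767) and 0.339 bases (SD 0.0090), of 0.587 and 0.455 over all rearrangements. Each measure was higher in the tumor of mice 3 to 5 and lower in that of mice 1 and 2. The median V trimming was 2 to 3 bases in every sample. Of the 64 tumor rearrangements, 52 had a single template and 18 shared their last 40 bases with a rearrangement of the same sample with at least 50 times the templates. In the TdLN 61 of 68 had a single template and 5 lay close to a larger one. Whether any of these are misread copies was not tested.

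**Figure D4:**
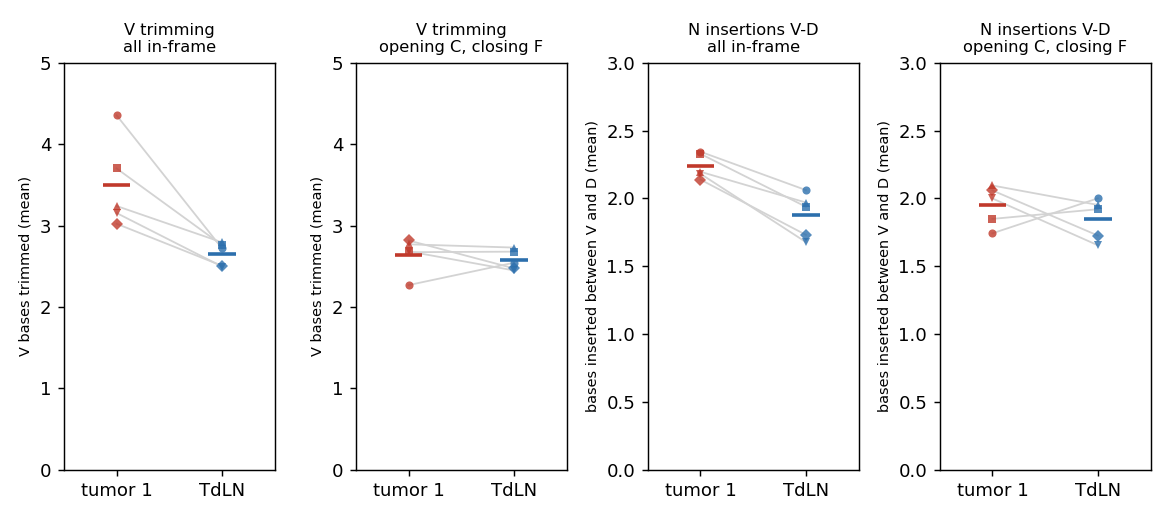
Mean V trimming (2 left panels) and mean N insertions between V and D (2 right panels), in bases per unique in-frame rearrangement, over all in-frame rearrangements and over those whose CDR3 opens with cysteine and closes with phenylalanine. Each mouse has its own marker and a grey line joins its tumor 1 (red) and TdLN (blue), with a bar at the mean, and the gap of 3.49 against 2.66 V bases is 2.64 against 2.57 in the set selected for its cysteine, with the tumor of mice 3 to 5 still above their TdLN.

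The excess at the V side was largest among rearrangements seen once. With a single template V trimming was 4.17 ± 0.942 bases in tumor 1 and 2.70 ± 0.154 in the TdLN, with 2 to 4 templates 3.04 ± 0.374 and 2.60 ± 0.140, and with 5 or more 2.60 ± 0.299 and 2.31 ± 0.423 (SD, n = 5). The single-template rearrangements with both conserved residues had 2.78 ± 0.288 and 2.58 ± 0.120. In out-of-frame rearrangements the differences were larger, at 2.61 bases for V trimming (exact permutation, adjusted p = 0.0317) and 1.69 for V-D insertions (adjusted p = 0.0317).

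Tumor rearrangements were split by whether they were also found in the TdLN of the same mouse. The shared ones belong to the node's rearrangements by definition, so a likeness of their junctions to those of the node is built in. Their mean V trimming was 2.63 ± 0.194 bases and their mean total N insertions 3.42 ± 0.335, against 4.03 ± 0.970 and 4.46 ± 0.503 for tumor rearrangements not found there (SD, n = 5 mice; 427 and 996 rearrangements). Both values were lower for the shared ones in 5 of 5 mice. Of the 64 without a conserved residue, 4 were found in the node. Leaving those 64 out, V trimming was 2.46 ± 0.186 and 2.70 ± 0.287, and N insertions 3.36 ± 0.344 and 3.76 ± 0.363, lower for the shared ones in 4 of 5 mice each. Shared rearrangements also were larger, since 26.6% ± 9.51 of them against 60.5% ± 6.56 of the others had a single template, and size and sharing cannot be told apart here.

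N insertions over both joints were 3.99, 4.55, 4.17, 3.89 and 3.77 bases in tumor 1 and 3.95, 3.75, 3.70, 3.33 and 3.22 in the TdLN. The tumor value was the higher in all 5 mice, with a mean difference of 0.482 bases (SD over the 5 mice 0.276) that did not pass the threshold (exact permutation p = 0.0397, adjusted p = 0.159). Insertions between D and J were 1.87 ± 0.248 and 1.75 ± 0.142 bases (SD, n = 5; adjusted p = 0.593, exact permutation). Rearrangements without any N base, the kind that different cells can form independently most easily, made up 7.75% ± 1.71 of the tumor and 9.71% ± 3.26 of the TdLN rearrangements. The nodes of mice 4 and 5 stood at 12.9% and 13.6% and the other three at 7.05% to 7.60%.

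Weighted by templates none of the 12 measures passed the threshold (percent called 0), and 1 had an unadjusted p under 0.05. D-J insertions were 0.790, 0.969, 1.51, 1.21 and 0.832 bases per tumor template and 1.65, 1.72, 1.75, 1.59 and 1.53 per TdLN template. Each tumor lay below each node, opposite in direction to the unique rearrangements (exact permutation p = 0.00794, adjusted p = 0.0952, and 0.0476 without tumor 1 of mouse 1). The difference of -0.587 bases was -0.0524 without rearrangements found in another mouse (adjusted p = 0.984) and -0.179 without the largest rearrangement of each sample (adjusted p = 0.929). The dominant clones of mice 1, 2 and 5 had no N base between D and J. V trimming per template was 12.8 bases in tumor 1 of mouse 1, where the clone with 25 trimmed V bases held 48.0% of the templates, and 2.16 to 3.78 in the other four tumors.

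Trimming of the other gene ends differed by less than the spread between mice. J trimming was 2.79 ± 0.160 bases in tumor 1 and 2.87 ± 0.0408 in the TdLN, trimming of the 5' end of the D gene 2.65 ± 0.189 and 2.63 ± 0.0345, and that of its 3' end 3.40 ± 0.168 and 3.24 ± 0.0606 (SD, n = 5; exact permutation, adjusted p = 0.560, 0.976 and 0.286). J trimming depended on the J gene in both tissues. In the TdLN it ran from 1.504 bases for Trbj2-3 to 4.05 for Trbj1-6, and in tumor 1 from 1.43 for Trbj1-3 to 3.82 for Trbj2-7, with 4 of 12 J genes trimmed more in tumor 1.

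Counted in bases, the V segment gave 12.7 ± 0.462 bases of the tumor CDR3 and 13.6 ± 0.112 of the TdLN CDR3, N insertions 4.07 and 3.59, the D gene 6.66 and 6.79, and the J segment 18.0 and 18.1. Fewer V bases and more N bases thus offset each other in part, and the whole CDR3 had 41.5 ± 0.811 and 42.0 ± 0.233 bases. With both conserved residues present these parts differed by -0.140 to 0.0743 bases between tissues.

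The D genes were used almost evenly. Trbd1 made up 40.4% ± 2.21 of tumor and 43.4% ± 1.80 of TdLN rearrangements, Trbd2 40.2% ± 2.80 and 38.7% ± 1.06, and 19.4% ± 1.87 and 17.9% ± 0.897 had no single D gene assigned (SD, n = 5). Among those assigned, Trbd1 was at 51.6%, 46.2%, 48.0%, 53.0% and 51.9% in tumor 1 and 53.6%, 52.8%, 49.9%, 54.2% and 53.6% in the TdLN. It was lower in the tumor of all 5 mice, by a mean of 2.70 percentage points that did not pass the threshold (exact permutation p = 0.127, adjusted p = 0.305). The Trbj1 cluster held 32.9% ± 2.65 and 32.6% ± 1.49 of the rearrangements.

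Trbd2 assigned next to a Trbj1 gene gives a view of how surely D genes were named, because deletional joining cannot pair them. In the TdLN such pairs were 9.50%, 11.9%, 8.47%, 9.86% and 9.27% of the rearrangements with an assigned D gene and a Trbj1 gene. In tumor 1 they were 18.2%, 18.1%, 14.3%, 13.6% and 17.2%, or 10 of 55, 13 of 72, 7 of 49, 11 of 81 and 15 of 87. Every tumor lay above every node, by a mean of 6.47 points (the 5 differences within mice had an SD of 1.95, exact permutation p = 0.00794, a comparison chosen after the data were seen). With both conserved residues required the shares were 15.1% ± 1.36 and 9.63% ± 1.12 (exact permutation p = 0.00794), and among out-of-frame rearrangements the difference was 0.704 points (p = 0.817). Among single-template rearrangements the shares were 16.6% ± 5.63 and 10.3% ± 1.79 (exact permutation p = 0.0635). With 2 or more templates the shares were 14.4% ± 5.18 and 8.44% ± 1.52 (exact permutation p = 0.0238). Weighted by templates the shares were alike, at 9.21% ± 8.70 and 9.40% ± 1.36, and higher in the tumor of 2 of 5 mice (SD, n = 5). The D stretch left in these pairs was short, 5.80 ± 0.552 bases in tumor 1 and 5.68 ± 0.195 in the TdLN, against 8.71 ± 0.316 and 8.62 ± 0.0552 for Trbd2 with a Trbj2 gene. How far wrongly named D genes account for the pairs was not tested.

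**Figure D5:**
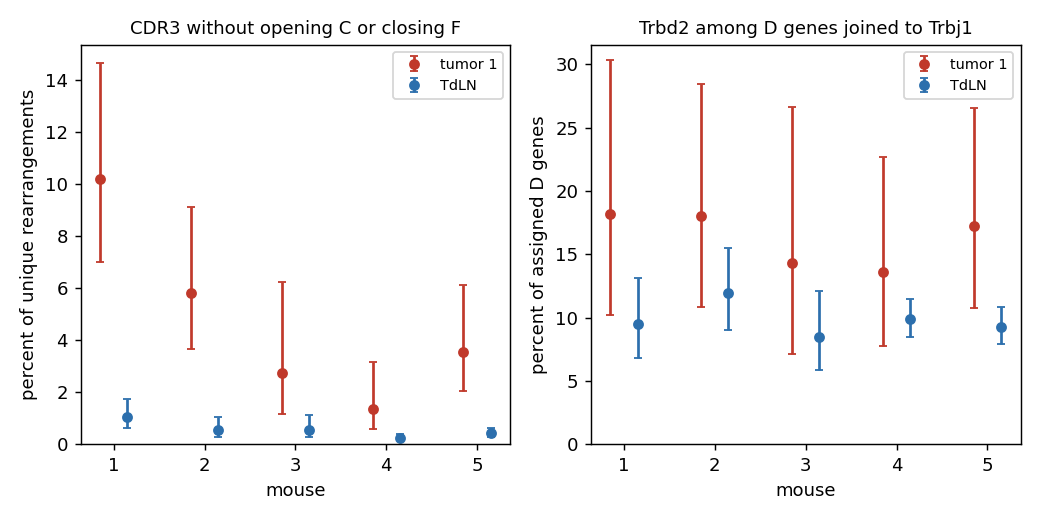
Per mouse, the percentage of unique in-frame rearrangements whose CDR3 lacks the opening cysteine or closing phenylalanine (left) and the percentage of Trbd2 among assigned D genes joined to a Trbj1 gene (right), with 95% Wilson intervals, tumor 1 in red and TdLN in blue. The tumor point lies above the TdLN point in all 5 mice in both panels, at 1.37% to 10.2% against 0.245% to 1.04% on the left and 13.6% to 18.2% against 8.47% to 11.9% on the right.

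The residues in the middle of the loop, between the first 4 and the last 4, were alike. Glycine, which the D genes encode in most frames, made up 22.0% ± 1.18 of these residues in tumor 1 and 22.7% ± 0.618 in the TdLN (SD, n = 5). None of the 20 amino acids passed the threshold (percent called 0), and 3 had an unadjusted p under 0.05. Valine was at 1.52% ± 0.433 and 1.92% ± 0.0323, lower in the tumor of all 5 mice, isoleucine at 1.40% ± 0.0843 and 1.14% ± 0.182, higher in all 5, and cysteine at 0.175% ± 0.220 and 0.0432% ± 0.0167, higher in 4 (exact permutation, adjusted p = 0.212 for each). These amino acids were named after their values were seen.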

How the data were processed

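TCRβ rearrangements of sorted CD8+ PD-1+ CD44+ T cells were read from genomic DNA by the immunoSEQ assay, whose provider processed the reads. Its software and version are not given in the sources used here, and the submitters' processing notes name mm10. The counts that the authors deposited, in whole templates for each 87-base rearrangement, were used without normalization. The fraction column that the authors deposited was not used further. The files also give gene names, reading frame, N insertions and trimmed bases, and D genes tied between Trbd1 and Trbd2 are left unassigned there (2735 of 17135 rearrangements), with no D found in 340.

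Each sample gave 1 value per measure over its in-frame rearrangements, either each counted once or weighted by templates. D trimming and the insertions on each side of D were averaged over rearrangements with a D position. No insertion value was negative (0 of the in-frame rearrangements). J shares left out 21 rearrangements without a J gene and tested those J genes whose mean share reached 1%. Means of 5 tumors and 5 nodes were compared by a two-sided exact permutation test (252 splits, smallest p 0.00794) with Benjamini-Hochberg adjustment over J genes, over 12 junction measures, over length classes with a mean share of at least 1%, or over 20 amino acids. Samples with the same number come from 1 mouse by the study's description, and tumor 1 shared 11.5% to 49.2% of its rearrangements with the TdLN of the same mouse and no more than 4.75% with that of another mouse. The J genes named are those past the threshold on either scale or, there being fewer than 3, the 3 with the largest difference on that scale, with Trbd1 and Trbd2. The sequences named are the largest in-frame rearrangement of each sample. Members, lists and measures were chosen with earlier results of these data known.

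Depth per sample is given by the templates and rearrangements listed, and intervals are 95% Wilson intervals. Intervals and the limit of 3 counts for a share of 0 cover counting error only. The scripts were tested on simulated data. Python 3.11.15, numpy 2.4.6, pandas 2.3.3, scipy 1.17.1, matplotlib 3.10.9, R 4.3.3 and limma 3.58.1 were used. Tumor 2 was not used here.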

Additional observations from a re-analysis of the deposited data

Results flagged for a closer look

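In 9 of 66 groups of 5 values, 1 sample stood apart from the others by Dixon's test. Chance does so in about 1 of 20 separate groups. The groups here share samples and clones, so their count cannot be set against that rate. Of the 9 values that stood apart, 7 belonged to mouse 1. Its tumor had the highest SD of CDR3 length over unique rearrangements (2.20 residues). On templates its tumor and its TdLN had the lowest mean CDR3 length (10.5 and 13.2 residues), the highest SD of length (3.59 and 2.65 residues) and the highest V trimming (12.8 and 4.69 bases), and the GSYEQYF rearrangement held 48.0% and 10.8% of their templates. The tumor of mouse 3 had the highest Trbj1-3 share of templates (62.9%), where the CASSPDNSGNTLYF rearrangement held 62.3%. The tumor of mouse 5 had the highest Trbj2-2 share of templates among the tumors (2.72%).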

How the results depend on the processing

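The results named here were recomputed under 36 settings, 3 of them added after seeing the data (CDR3s with both conserved residues, single-template rearrangements, and no mouse 1). The 2 junction measures called over unique rearrangements became 0 with the paired sign-flip test (replicate block), whose differences stayed at 0.839 and 0.362 bases, and also 0 with at least 2 templates, without small rearrangements close to a large one, with V gene, J gene and CDR3 amino acids as the unit, with mice 1 to 3 or mice 4 and 5 only, with medians, with an assigned D gene only, with both conserved residues and without mouse 1. Neither the sign-flip test with 5 pairs nor the subsets of mice can reach the threshold, by their size. The 3 length classes called on templates became 0 with the replicate block, at least 2 templates, without rearrangements found in another mouse, in either subset of mice, with medians and without the largest rearrangement of each sample. The count of J genes called was 0 in the main settings. It was 2 over unique rearrangements with at least 2 templates or with a single template, and on templates 2 with limma without the block at pseudocounts of 0.1 and 1, and 3 with both conserved residues. The mean CDR3 length difference turned to 0.0403 residues with at least 2 templates, and the difference in mean N insertions was 1.93 bases, past the threshold, among out-of-frame rearrangements.

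Leaving out 1 sample at a time gave 0 to 3 J genes over unique rearrangements and 0 to 3 on templates, 0 to 2 junction measures over unique rearrangements and 0 to 2 on templates, 3 to 4 length classes on templates, a Trbj1-3 difference on templates of -4.01 to 11.7 points, a mean CDR3 length difference of -0.241 to -0.0674 residues and a mean N insertion difference of 0.363 to 0.572 bases. With at least 2 templates the differences of Trbj2-7, Trbj2-5 (unique) and Trbj1-1 (templates) turned to -10.5, 2.99 and 0.117 points. The Trbj1-1 difference over unique rearrangements turned to -2.38 points out of frame and -0.0697 points with a single template. The D-J insertion difference on templates turned to 0.368 bases out of frame. The Trbj1-3 difference on templates turned to -2.53 points without rearrangements found in another mouse, -2.70 out of frame, -4.12 in mice 4 and 5, -3.89 with medians, -3.88 without the largest rearrangements, and to -1.38 and -0.63 on the log2 scale in limma at pseudocounts of 0.1 and 1, with the replicate block as without it. The causes were not tested. Tumor 1, with 183 to 366 rearrangements a sample, limits the precision.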
